A study of Mus musculus with 6 samples.

Results

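The 6 genes described here move anions, potassium and small organic acids across epithelia and are known from the follicle of the thyroid gland: Slc26a4 (the exchanger pendrin), the chloride channel genes Ano1 and Cftr, the monocarboxylate transporter gene Slc5a8, and the potassium channel genes Kcnq1 and Kcne2. They were found by name among the probes of a mouse expression array, Ano1 under its older name Tmem16a, and make up 6 of the 27597 gene symbols on it. They are read by 7 probes on 16 of the 43379 spots of each array that are not controls. The genes were chosen with the difference between the groups already known. Their levels and differences are therefore given as a description, and no test of them is reported. The word follicular is background knowledge and not a result: on these arrays Slc26a4, Cftr and Kcne2 were lower in the thyroid cells than in the thymic cells, and no thyroid array showed Kcne2 well above background.

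RNA of sorted mouse epithelial cells was hybridised to 6 single-colour arrays, 3 of thymic and 3 of thyroid cells, all of the C57BL/6 strain and with no transgene or treatment named in the labels. The thymic cells came from the thymic medulla and were sorted as Epcam+ UEA1+ CD45- Fluorogold-, that is, live epithelial cells that bind the lectin UEA1 and lack the blood cell protein CD45. Thymic replicates 1 and 2 each pooled 6 thymi and thymic replicate 3 pooled 2, and the thyroid cells, sorted as Epcam+ CD45- Fluorogold-, pooled 20 thyroids in each replicate. The age and sex of the mice are not given in the sources used here, and the submitters call the replicates independent.

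In the thyroid follicle, iodide enters from the blood through the sodium iodide symporter (Slc5a5) and leaves into the lumen across the apical membrane, where pendrin, anoctamin 1 (the calcium-activated chloride channel made by Ano1) and CFTR (a chloride channel opened by cAMP and ATP) are found. KCNQ1 and its small partner KCNE2 form a potassium channel of the basolateral membrane that supports iodide uptake, and SLC5A8 carries lactate and other monocarboxylates with sodium. The medulla of the thymus is known for expressing genes that are otherwise restricted to single organs, many of them under the control of Aire, which exposes maturing T cells to those products.

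Probes that carry the values below are shown first, for the genes other than Ano1, because each level is the brightness of 1 such sequence. Each probe has 60 bases and its coordinates are those of the array files in the mm8 build. The first 30 bases are printed, and all 60 for the second Cftr probe. Whether a probe lies in a coding exon or in an untranslated region was not determined here. The Slc26a4 probe lies at chr12:32105660-32105719 on the minus strand. The Cftr probe on repeated spots lies at chr6:18272483-18272542 and the other Cftr probe at chr6:18217739-18217798, both on the plus strand. The Slc5a8 probe lies at chr10:88358942-88359001, the Kcnq1 probe at chr7:143236225-143236284 and the Kcne2 probe at chr16:92186769-92186828, all on the plus strand.
Slc26a4: aggaaggactaatcacagagattcctgact
Cftr, repeated probe: cactagctattttaaaacaggggagtgagg
Cftr, second probe: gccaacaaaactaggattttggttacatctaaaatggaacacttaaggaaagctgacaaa
Slc5a8: gctgaacatatgatgtagacacattgggta
Kcnq1: gaccaatgctcagactccagcctctttcac
Kcne2: gttccaagccattctagacccattgcactg

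Levels are log2 of the processed signal minus the 75th percentile of that signal on the same array, so 0 is the level that 25% of probes exceed. That percentile lay at 722, 659 and 636 signal units for thymic replicates 1 to 3, against 761, 446 and 670.4 for thyroid replicates 1 to 3. No spot was saturated. The scanner software flags a spot as well above background at 13 background standard deviations, and 78.4% to 81.0% of the 41174 probes carried this flag on the thymic arrays, against 65.3% to 72.7% on the thyroid arrays. The precision is limited by the number of arrays, 3 in each group. Slide 1 held the 3 thymic arrays together with thyroid replicate 1, and slide 2 held the other thyroid arrays. In these bulk samples, fewer cells of a type and less RNA per cell cannot be told apart.

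Of the 6 genes, 3 were higher in the thymic cells (Slc26a4, Cftr and Kcne2) and 3 were higher in the thyroid cells (Ano1, Slc5a8 and Kcnq1). The levels of the 3 thymic arrays and the 3 thyroid arrays did not overlap for any of the 6, as was so for 76.5% of all 21381 genes tested (42.1% with the thymic and 34.3% with the thyroid arrays higher). In the limma fit over all genes, 69.8% were called at a Benjamini-Hochberg adjusted p under 0.05 (39.3% with the thymic side higher and 30.5% with the thyroid side higher). Since the genes were chosen on this contrast, nothing is read from their count beside these shares. All 6 were well above background on the 3 thymic arrays, and 5 of 6 on the 3 thyroid arrays.

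**Figure D1:**
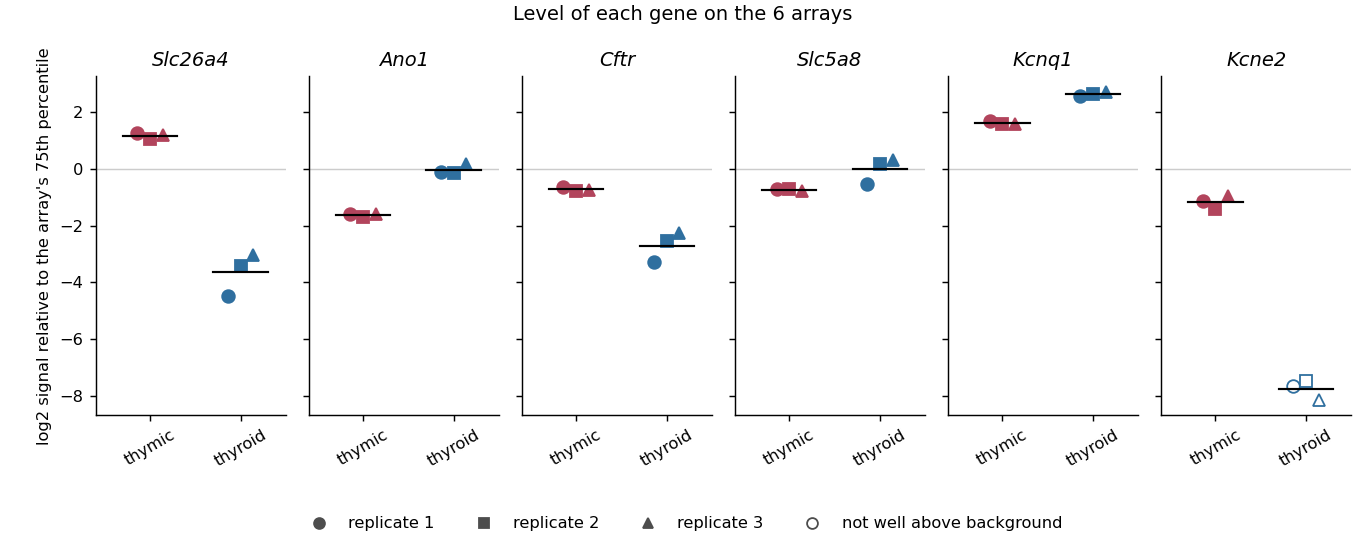
Level of each gene on the 6 arrays, as log2 signal relative to the array's 75th percentile (vertical axis), with thymic arrays in red, thyroid arrays in blue, marker shapes for replicates 1 to 3 and a bar at each group mean. Slc26a4, Cftr and Kcne2 lie higher on the thymic arrays, whereas Ano1, Slc5a8 and Kcnq1 higher on the thyroid arrays, and the open Kcne2 points were not well above background.

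Slc26a4 encodes pendrin, which exchanges chloride for iodide or bicarbonate in the thyroid, the inner ear and the kidney. Its level was 1.27, 1.06 and 1.18 on the thymic arrays, against -4.47, -3.42 and -3.03 on the thyroid arrays. In signal units this was 1737, 1369 and 1440.5 for the thymic, against 34.3, 41.6 and 81.8 for the thyroid arrays. The 3 thymic values lay within 0.21 of each other on the log2 scale, while the thyroid values spanned 1.44, and all 6 were well above background. The thymic mean was 1.17 ± 0.11 and the thyroid mean -3.64 ± 0.74 (SD, n = 3 each), a log2 difference of 4.81 ± 0.35 (SE of the fit over all genes), or 28.1-fold higher in the thymic cells. A larger difference in that direction was seen for 6.06% of the genes tested. Against thyroid replicate 1, on the same slide as the thymic arrays, the fold was 49.9, and against thyroid replicates 2 and 3 it was 21.1. With the normexp background correction, which changes faint signals most, the log2 difference was 3.79.

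Ano1, which encodes the chloride channel that opens when calcium rises in the cell, went the other way. It stood at -1.58, -1.72 and -1.59 on the thymic arrays, against -0.12, -0.15 and 0.16 on the thyroid arrays. All thyroid values were above all thymic ones, with a gap of 1.43 between the groups. The means were -1.63 ± 0.08 in thymic and -0.04 ± 0.17 in thyroid cells, a log2 difference of -1.59 ± 0.13, and the gene was 3.01-fold higher in the thyroid cells. Beyond the follicle, Ano1 is known from interstitial cells of Cajal and smooth muscle, and 4 of 5 tested markers of those cells were called higher in thymic and 1 in thyroid cells, with a summed level (linear signal over the array's 75th percentile) of 16.2 to 20.2 on the thymic and 19.3 to 23.2 on the thyroid arrays. Kit, the receptor that marks interstitial cells of Cajal, was 2.19-fold higher in thymic cells (limma adjusted p = 0.00301), and Acta2, smooth muscle actin, 1.61-fold higher in thyroid cells (limma adjusted p = 0.00904). The part of these cells in the Ano1 difference was not tested.

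Cftr, the cystic fibrosis chloride channel of many secretory epithelia, has 1 probe repeated on 10 spots and 1 probe on a single spot. The repeated probe read -0.65, -0.80 and -0.74 on the thymic arrays, against -3.30, -2.55 and -2.27 on the thyroid arrays, where 1 outlier spot was left out on thyroid replicate 2. Single spots lay between -0.93 and -0.52 in the thymic group, against -3.47 and -2.10 in the thyroid group, so no spot of one group reached the other. The spot SD within an array was 0.056 to 0.145, which is smaller than the thyroid arrays' spread of 0.53.

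The means of the repeated probe were -0.73 ± 0.07 in thymic and -2.71 ± 0.53 in thyroid cells, a log2 difference of 1.98 ± 0.26, or 3.94-fold higher in thymic cells. The second probe, which lies elsewhere in the gene, read -2.75, -3.17 and -2.75 on the thymic arrays against -5.89, -5.02 and -4.40 on the thyroid arrays, all well above background. Its log2 difference was 2.21 ± 0.36, or 4.64-fold in the same direction. Within an array, the repeated probe read 2.01 to 2.37 above the second probe in the thymic group and 2.13 to 2.59 in the thyroid group. Both probes were lowest on thyroid replicate 1 and highest among the thyroid arrays on replicate 3. Against thyroid replicate 1 alone the repeated probe gave 5.95-fold, and against thyroid replicates 2 and 3 it gave 3.21-fold.

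**Figure D2:**
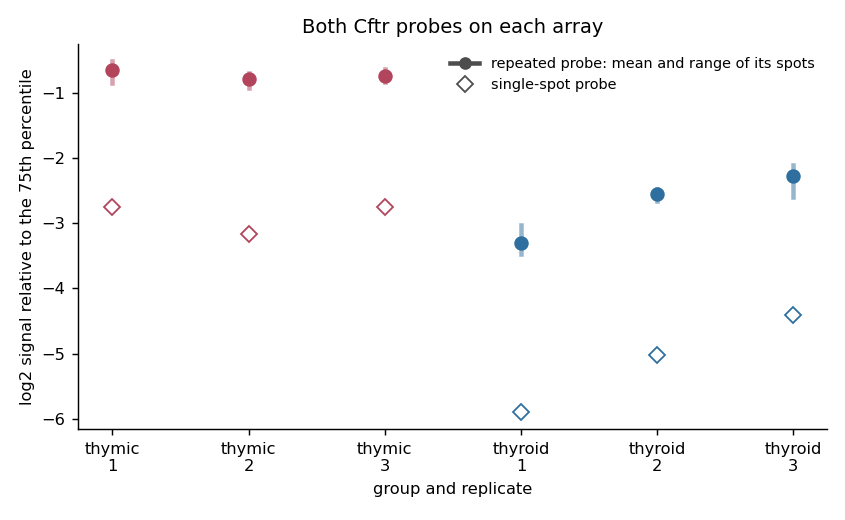
Both Cftr probes on each array, as log2 signal relative to the 75th percentile, with the mean and range of the repeated spots (filled circles and lines) and the single-spot probe (open diamonds). Each probe is higher on the 3 thymic than on the 3 thyroid arrays, and the order of the thyroid arrays is shared by the probes.

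Slc5a8, the sodium-coupled carrier of lactate, butyrate and related acids, differed least of the 6. It read -0.70, -0.71 and -0.79 on the thymic arrays, against -0.54, 0.18 and 0.32 on the thyroid arrays. The groups were only 0.16 apart, because thyroid replicate 1 lay next to the thymic values. The means were -0.73 ± 0.05 in thymic and -0.02 ± 0.46 in thyroid cells, a log2 difference of -0.72 ± 0.23, which is 1.64-fold higher in the thyroid cells. On slide 1 alone the difference was -0.19, or 1.14-fold, and against thyroid replicates 2 and 3 it was 1.97-fold. The size of the Slc5a8 difference thus varied with the thyroid array used.

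Kcnq1 encodes the pore of a voltage-gated potassium channel of heart, inner ear, stomach and thyroid. It read 1.67, 1.57 and 1.57 on the thymic arrays, against 2.55, 2.63 and 2.71 on the thyroid arrays, the tightest groups of the 6 genes when both spreads are counted. The means were 1.60 ± 0.06 in thymic and 2.63 ± 0.08 in thyroid cells, a log2 difference of -1.03 ± 0.10, or 2.04-fold higher in thyroid cells. The difference was -0.95 against thyroid replicate 1 on the same slide.

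Kcne2 encodes the single-pass subunit that keeps KCNQ1 open at rest in thyroid and gastric cells. It moved against its partner: -1.14, -1.43 and -0.95 on the thymic arrays, against -7.66, -7.47 and -8.14 on the thyroid arrays. In signal units this was 328, 244 and 329 for the thymic, against 3.77, 2.52 and 2.38 for the thyroid arrays. None of the thyroid values was well above background, and the one of thyroid replicate 2 is a surrogate that the software puts in for a spot not above background. By a weaker flag, for a positive signal significant against background, Kcne2 was detected on thyroid replicates 1 and 3. Only a bound can therefore be given: on this scale, the thymic level of Kcne2 was at least 28.0-fold higher than the thyroid one. The bound sets the thymic mean of -1.17 ± 0.24 against a thyroid mean in which each array takes the higher of the probe's own level and the lowest level of any probe well above background. The unbounded log2 difference was 6.58 ± 0.21 (thyroid mean -7.75 ± 0.34), and it was 2.53 with the normexp correction. That correction adds an offset of 50 to each signal, which shrinks differences from faint signals, and the bound does not hold under it. Bounds given below for other genes are likewise those of the levels used here and not of every setting.

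Markers of other tissues in which these channels are known were also measured. Kcne2 and Kcnq1 serve the acid-secreting cell of the stomach, and the proton pump genes of that cell, Atp4a and Atp4b, were higher in thymic cells by 38.0-fold and 41.2-fold (limma adjusted p = 1.22e-06 and 3.45e-07), Atp4b being well above background on 2 of 3 thyroid arrays. Of 9 tested genes of intestinal and gastric secretory epithelium, 8 were called higher in thymic cells and 0 in thyroid cells, with a summed level of 218 to 244 on the thymic and 3.51 to 5.27 on the thyroid arrays. Muc2 and Tff3 were well above background on no thyroid array. Of 5 tested cardiac muscle genes, 4 were called higher in thymic cells and 0 in thyroid cells, with a summed level of 8.18 to 10.2 on the thymic and 1.59 to 2.55 on the thyroid arrays, and Myh6 and Myh7 were well above background on no thyroid array. The part of either cell type in the Kcne2 difference was not tested.

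Pendrin and CFTR are also known from ionocytes, the rare acid-base and chloride-handling cells of several epithelia. Of 12 tested ionocyte genes, 9 were called higher in thymic and 2 in thyroid cells, with a median log2 difference of 2.33 beside 0.10 over all genes tested. Foxi1, the transcription factor that defines ionocytes, averaged -4.06 ± 0.25 in thymic and -8.24 ± 0.51 in thyroid cells and was higher in thymic cells by at least 3.78-fold (limma adjusted p = 1.65e-05). Ascl3, another ionocyte factor, was 4.63-fold higher in thymic cells at -2.44 ± 0.25 against -4.65 ± 0.18 (limma adjusted p = 3.23e-05). The proton pump subunit gene Atp6v1g3 was at least 38.2-fold higher there (limma adjusted p = 2.31e-05). Foxi1, Foxi2, Atp6v1b1, Atp6v1g3 and Coch were among those well above background on no thyroid array. The summed level of the 12 was 2.65 to 3.16 on the thymic and 4.63 to 7.41 on the thyroid arrays. Moxd1, one of the genes called higher in thyroid cells, averaged -0.79 ± 0.41 in thymic and 2.46 ± 0.37 in thyroid cells. The part of such cells in the Slc26a4 and Cftr differences was not tested.

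The promoters of Slc26a4 and Kcne2 are shown because these genes had the largest differences towards the thymic cells of the 6. RefSeq sequences of the GRCm38.p6 build held 5 of the 6 genes in 6 windows of 250 bases before a transcription start. The motifs searched, on both strands, were TGTTTAC for forkhead factors, CTCAAG for NKX2-1, TGACGTCA for the cAMP response element, and TATAAA for the TATA box. They occur in 3.17%, 13.3%, 1.55% and 12.4% of all 32851 such windows. The Slc26a4 window, chr12:31559985-31560234 on the minus strand, held CTTGAG, the reverse complement of the NKX2-1 letters, 152 bases before the start and TATAAA 31 bases before it. The first Kcne2 window, chr16:92292139-92292388 on the plus strand, held CTTGAG 144 bases before the start. The matches are in capitals below, 5′ to 3′. The second Kcne2 window and those of Cftr, Ano1 and Slc5a8 held none of these letters. A match is a description of the sequence and not of binding.
Slc26a4: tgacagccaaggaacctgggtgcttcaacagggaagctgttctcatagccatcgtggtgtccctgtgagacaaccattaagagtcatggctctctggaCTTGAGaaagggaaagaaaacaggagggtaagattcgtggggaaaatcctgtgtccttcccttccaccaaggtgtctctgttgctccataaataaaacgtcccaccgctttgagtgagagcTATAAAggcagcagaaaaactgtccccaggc
Kcne2: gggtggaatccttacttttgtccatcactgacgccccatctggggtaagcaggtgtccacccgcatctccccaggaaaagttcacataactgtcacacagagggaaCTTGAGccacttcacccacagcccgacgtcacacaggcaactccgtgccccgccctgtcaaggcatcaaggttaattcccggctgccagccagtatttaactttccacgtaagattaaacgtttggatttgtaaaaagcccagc
The windows also differed in base composition, with 76.4% GC in that of Cftr and 72% in that of Ano1, against 49.6% in that of Slc26a4.

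The thyroid arrays varied more than the thymic arrays for these genes. The median SD over the 6 genes was 0.074 on the thymic and 0.40 on the thyroid arrays, beside 0.12 and 0.22 over all genes tested. Slc26a4, Cftr and Slc5a8 were each lowest on thyroid replicate 1, by 0.83, 0.59 and 0.53 below their thyroid mean, and each highest on replicate 3. Only 4.57% of genes had a larger SD among the thyroid arrays than Slc26a4. The follicular genes Slc5a5 (-0.35, 0.30 and 0.88) and Slc26a7 (2.15, 2.47 and 3.09) and the sort gene Epcam (1.44, 1.62 and 2.10) had the same order on thyroid replicates 1 to 3, while Tg stood at 8.91, 9.31 and 8.88. Tshr (0.30, -0.02 and 0.78), Pax8 (0.79, 0.78 and 1.17) and Nkx2-1 (1.39, 1.24 and 2.02) were lowest on replicate 2. Each of the 10 endothelial marker genes was lowest on replicate 3, among them Egfl7 (7.01, 6.91 and 6.23) and Tek (3.37, 2.94 and 2.60). The part of the cell mix in the spread of the thyroid arrays was not tested. Thyroid replicate 1 was the only thyroid array on slide 1, so slide and replicate cannot be told apart here.

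**Figure D3:**
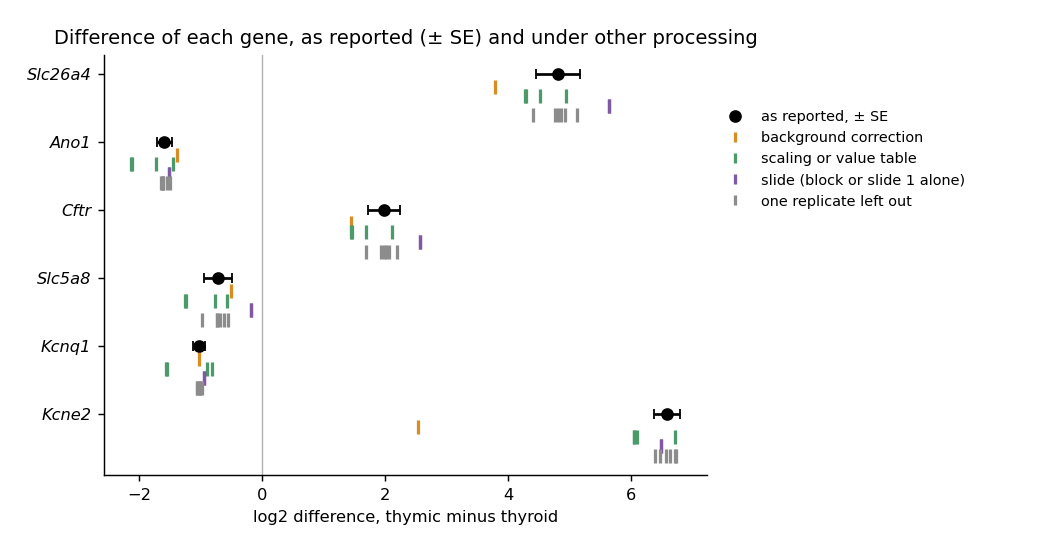
Log2 difference, thymic minus thyroid, of each gene as reported (black, ± SE) and under other background corrections, scalings, slides and with 1 replicate left out (coloured ticks). Each gene keeps its side of 0 under every setting, with Slc5a8 closest to 0 on slide 1 (-0.19) and Kcne2 falling to 2.53 with the normexp correction.

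Genes related to the 6 by family show which other transporters differed. These lists leave out the 6 genes themselves. Among all genes tested, 39.3% were called higher in thymic and 30.5% in thyroid cells. A list with calls in both directions is therefore not by itself a trait of its genes. Most genes named in each are among the up to 3 with the largest differences in each direction among the genes called. Some of those are not reported here, so a named gene need not differ most in its list. Among 9 tested SLC26 anion exchangers, 4 were called higher in thymic and 4 in thyroid cells, with a median log2 difference of 0.66. Slc26a9, a chloride transporter of stomach and airway, was 7.99-fold higher in thymic cells (limma adjusted p = 0.000302). Slc26a1, a sulfate transporter, and Slc26a3, the chloride bicarbonate exchanger DRA of the intestine, were at least 6.43-fold and 3.71-fold higher in thymic cells. Slc26a7, an anion transporter needed for iodide handling in the thyroid, averaged -6.16 ± 0.45 in thymic cells, where it was well above background on 2 arrays, and 2.57 ± 0.48 in thyroid cells, a log2 difference of -8.73 ± 0.31 (limma adjusted p = 1.32e-06). Slc26a10 was 39.8-fold and Slc26a11 3.97-fold higher in thyroid cells. Slc26a4 and Slc26a7, both known as anion transporters of the follicular cell, thus stood on opposite sides of the comparison.

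The channel families had calls in both directions as well. Of 4 tested KCNQ and KCNE subunit genes, 2 were called in each direction: Kcnq3, a neuronal channel gene, was higher in thymic cells by at least 7.05-fold (limma adjusted p = 2.63e-06), and Kcne3, the subunit that pairs with KCNQ1 in the intestine, was 5.03-fold higher in thyroid cells at -2.07 ± 0.07 in thymic and 0.26 ± 0.16 in thyroid cells (limma adjusted p = 5.74e-06). Kcne1, the cardiac partner of KCNQ1, was called 1.92-fold higher in thymic cells (limma adjusted p = 0.0123), a call that ended with the normexp correction, quantile normalization, median centring and the deposited value table, with adjusted p-values of 0.0714 to 0.389. Kcne4 was called 1.92-fold higher in thyroid cells (limma adjusted p = 0.0404), and that call ended under 9 alternatives, among them the slide block, with adjusted p-values of 0.0548 to 0.115. Of 6 tested anoctamins, 2 were called higher in thymic and 3 in thyroid cells. One of the thymic calls, Ano2, was well above background on no thyroid array, and its log2 difference of 1.87 (limma adjusted p = 0.00631) was 0.07 with the normexp correction (adjusted p = 0.767) and 0.37 with quantile normalization (adjusted p = 0.398), which leave 1 thymic call. Ano9 was 2.44-fold higher in thymic cells, while Ano5, of skeletal muscle and bone, was at least 16.2-fold and Ano6, a lipid scramblase gene, 1.88-fold higher in thyroid cells. The 3 tested Ano6 probes had log2 differences of -0.98 to 0.21, with 2 called higher in thyroid and 0 in thymic cells.

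Among 11 tested SLC5 sodium-coupled transporters, 8 were called higher in thymic and 3 in thyroid cells, with a median of 2.67. Slc5a9, a mannose and glucose carrier, was 15.7-fold and Slc5a10 13.4-fold higher in thymic cells (limma adjusted p = 1.46e-05 and 9.77e-07). The iodide symporter Slc5a5 averaged -4.62 ± 0.48 in thymic and 0.28 ± 0.62 in thyroid cells, which is 29.8-fold higher in thyroid cells (limma adjusted p = 2.95e-05). Slc5a3, the myo-inositol carrier, was 2.38-fold higher in thyroid cells. The other thyroid call, Slc5a6 (log2 difference -0.41, limma adjusted p = 0.0299), ended under 9 alternatives, with adjusted p-values of 0.0515 to 0.523. Of 7 tested ABCC genes, the family of Cftr, 4 were called higher in thymic and 3 in thyroid cells. One of the thyroid calls, Abcc5 (log2 difference -0.48, limma adjusted p = 0.0386), ended under 7 alternatives, with adjusted p-values of 0.0618 to 0.884, and its difference was -0.03 with the median over its probes. Abcc8, the sulfonylurea receptor of the islet, was 12.6-fold higher in thymic cells and its relative Abcc9 10.3-fold higher in thyroid cells (limma adjusted p = 2.93e-06 and 3.15e-05).

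Other chloride routes of epithelia gave 7 of 23 tested genes higher in thymic and 10 higher in thyroid cells, with a median of -0.13. Clca1, a secreted regulator of Ano1 made by goblet cells, averaged 3.44 ± 0.05 in thymic and -6.46 ± 0.31 in thyroid cells, where it was well above background on 1 array, a log2 difference of 9.90 ± 0.17 (limma adjusted p = 2.27e-07). Best2, a bestrophin channel gene, was 7.45-fold higher in thymic cells. Lrrc8a, the essential subunit of the volume-regulated anion channel, was 6.81-fold, Slc12a4, a potassium chloride cotransporter, 3.57-fold and Lrrc8d 3.17-fold higher in thyroid cells. Slc12a2, which loads chloride into secreting cells, was 1.70-fold higher in thyroid cells (limma adjusted p = 0.00123). Over all 10 related lists, including those of the closing section, 109 of 123 genes were tested, 37 were called higher in thymic cells, 56 were called higher in thyroid cells, and the median was -0.49, beside 0.10 over all genes.

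**Figure D4:**
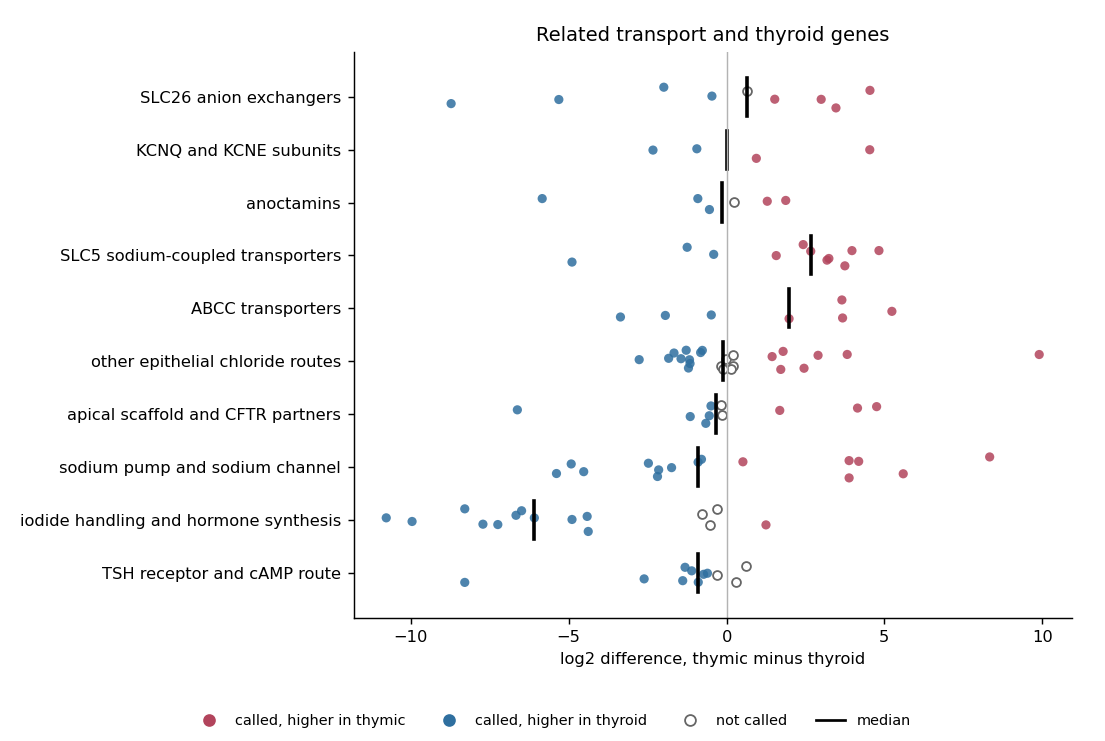
Log2 difference, thymic minus thyroid, of each tested gene in 10 lists of related genes (points), coloured by whether it was called higher in thymic (red) or in thyroid cells (blue) or not called (open), with each list's median as a bar. The iodide and hormone synthesis list lies farthest to the thyroid side (median -6.09) and the SLC5 list farthest to the thymic side (median 2.67).

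The genes that define thyroid hormone production in the follicle lay on the thyroid side. Of 15 tested genes of iodide handling and hormone synthesis, 11 were called higher in thyroid and 1 in thymic cells, with a median of -6.09. Tg, the thyroglobulin gene, averaged -1.74 ± 0.09 in thymic and 9.04 ± 0.24 in thyroid cells (limma adjusted p = 2.04e-07). By their brightest tested probes, Tshr and Pax8 were at least 90.3-fold and 132-fold higher in thyroid cells and well above background on no thymic array. Each had 2 tested probes, both called higher in thyroid cells. Their log2 differences were -8.29 to -5.88 for Tshr and -7.25 to -6.91 for Pax8, so these bounds do not hold for every probe. Nkx2-1 had a log2 difference of -7.72 ± 0.26 (limma adjusted p = 1.02e-06). Duoxa1, a maturation factor of the hydrogen peroxide oxidase DUOX1, was the gene called higher in thymic cells, by 2.38-fold (limma adjusted p = 0.00625). Duox2, the main oxidase, differed by -0.31 ± 0.36 (limma adjusted p = 0.463) and was called on slide 1 alone, with quantile normalization and without thyroid replicate 2 (adjusted p = 0.00599 to 0.0265). Slc26a4 and Kcne2 thus differed in the direction opposite to Slc5a5, Tg and Tshr.

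Genes that check the sorts and the cells in them differed as follows. Aire was at 6.13 ± 0.16 in thymic cells, against -5.95 ± 0.45 in thyroid cells. Epcam was at 2.96 ± 0.15 in thymic cells, against 1.72 ± 0.34 in thyroid cells (limma adjusted p = 0.00109), and Ptprc, which encodes CD45, at -0.86 ± 0.46 in thymic cells, against -4.91 ± 0.17 in thyroid cells (limma adjusted p = 1.04e-05). All 8 tested medullary epithelial markers were called higher in thymic cells, and their summed level was 266 to 286 in the thymic group, against 3.28 to 4.36 in the thyroid group. Of 10 follicular markers, 9 were called higher in thyroid cells (0.70 to 0.76 thymic, 592 to 776.5 thyroid). The labelled tissues thus showed their own epithelial markers, and genes of other cell types differed too. Also called higher in thyroid cells were 10 of 10 endothelial genes (2.02 to 2.29 thymic, 552 to 812 thyroid), 4 of 6 C-cell genes (88.1 to 118 thymic, 505 to 911 thyroid) and 2 of 4 parathyroid genes (13.0 to 48.2 thymic, 88.5 to 405 thyroid). Called higher in thymic cells were 9 of 9 tuft cell genes (37.4 to 44.8 thymic, 0.43 to 0.50 thyroid), 8 of 9 T-cell genes (2.15 to 4.41 thymic, 0.63 to 0.77 thyroid), 5 of 5 B-cell genes (4.28 to 5.18 thymic, 1.37 to 2.58 thyroid) and 7 of 8 myeloid genes (101 to 110.5 thymic, 1.61 to 2.92 thyroid). No thyroid array was well above background for the tuft cell factor Pou2f3, for Cd8a and Rag1 of T cells or for Ms4a1 and Pax5 of B cells. The part of these cells in the differences of the 6 genes was not tested.

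**Figure D5:**
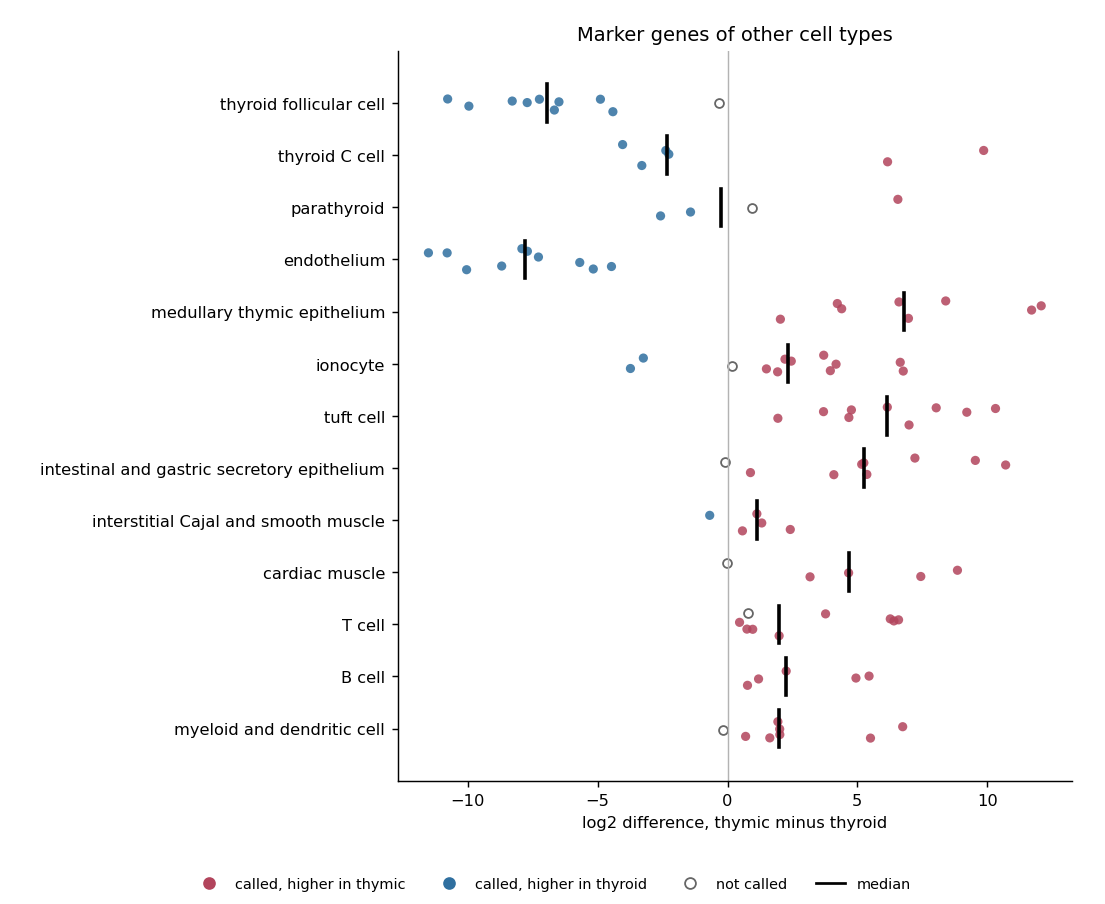
Log2 difference, thymic minus thyroid, of each tested marker gene of 13 cell types (points, coloured as called higher in thymic, called higher in thyroid, or not called) with each list's median as a bar. Endothelial markers (median -7.82) and follicular markers (median -6.96) lie on the thyroid side, and medullary markers (median 6.79) on the thymic side.

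The genes whose pattern over the 6 arrays was closest to each gene were found by the root mean square difference between profiles centred on their own mean, among 17042 genes well above background on every array. Closest to Slc26a4 were Dclk1 (0.154), C3 (0.190), Cyp2b19 (0.201), N4bp2l1 (0.207) and Bmp7 (0.213). Dclk1, a kinase gene that also marks tuft cells, read 1.95, 1.89 and 2.12 on the thymic arrays, against -3.32, -2.68 and -2.07 on the thyroid arrays, with thyroid replicate 1 lowest as for Slc26a4. Closest to Ano1 were Echdc3, Insr and Lrrc8d (0.068 to 0.077). Closest to Cftr were Ltb4r1, Rab42 and Unc5c (0.074 to 0.11). The closest genes of Ano1, Slc5a8 and Kcnq1 were all higher in thyroid cells, as those 3 genes were, which the choice by profile fixed in advance. Slc5a8 was closest to Emb, Xiap and Ergic1 (0.083 to 0.105), and Kcnq1 to Exoc8, Zfp764 and Usp46 (0.025 to 0.033). No closest genes are given for Kcne2, whose thyroid values were not well above background. The arrays share their slides and scaling with each of these genes, and with 6 arrays in 2 groups the likeness rests on the group difference for the most part.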

How the data were processed

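The 6 arrays hold RNA of 3 thymic and 3 thyroid cell sorts. The deposited scanner output of Agilent Feature Extraction 10.5.1.1 gives an intensity per spot, already detrended and with background subtracted, per the file headers. The authors also deposited a value table of linear ratios, each the processed signal over its array's median, within 1% on 100% of rows. Extraction used Trizol and the dye was Cy3, per the labels' protocols.

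Control and outlier spots were dropped and the remaining spots averaged per probe. Tested probes carried the flag for well above background on each of the 3 thymic or each of the 3 thyroid arrays, and the brightest tested probe stood for its gene. A RefSeq table named 24367 probes by accession, 6307 by symbol and 2425 by older symbol, while 8075 keep the array's own name. The test was limma 3.58.1 (R 4.3.3; lmFit, then eBayes, two-sided, with no covariate), adjusted by Benjamini-Hochberg over 21381 genes and tested on simulated data. The 6 genes, the lists, the markers, the tests and the rule for named genes were chosen with earlier results of these data known. The rule took the 6 genes, up to 3 genes per list and direction with the largest differences among calls whose groups do not overlap, 18 genes whatever their values, and the closest patterns (5 for Slc26a4, 3 for the others, not reported for Kcne2). Other marker genes were named after their values were seen. Some genes that the rule takes and the sequence of the Ano1 probe are not reported here. The alternatives were quantile normalization, normexp correction (offset 50), median centring, the value table, other filters on dim probes, the median over probes, the slide as a block or slide 1 alone, a replicate block, leaving out each replicate, and, chosen after seeing the data, no scaling between arrays. No per-sample column was left unused. Figures were drawn with matplotlib 3.10.9.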

Additional observations from a re-analysis of the deposited data

How the results depend on the processing

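The 6 genes kept their direction under each of 17 alternatives, with no value for Kcne2 where a probe had to be above background on all 6 arrays. Of 101 recomputed differences, 73 moved by less than the spread between replicates and 28 by more. Some of the 73 could not move and say nothing about stability. The other filters kept the same probe for each gene, as did the median over probes for genes with 1 probe. A replicate block, with 1 array of each group per number, cannot change a difference. With normexp correction the log2 difference (thymic minus thyroid) was 3.79 for Slc26a4, -1.38 for Ano1, 1.44 for Cftr and 2.53 for Kcne2. Quantile normalization, which shifted the median of all genes by -0.19, gave -1.73 for Ano1, -0.81 for Kcnq1 and 6.10 for Kcne2. Median centring, which shifted all genes by -0.54, gave 4.28 for Slc26a4, -2.13 for Ano1, 1.44 for Cftr, -1.25 for Slc5a8, -1.56 for Kcnq1 and 6.05 for Kcne2. The deposited value table gave -2.12 for Ano1, 1.46 for Cftr, -1.24 for Slc5a8, -1.55 for Kcnq1 and 6.06 for Kcne2. With no scaling Ano1 was at -1.46 and Kcnq1 at -0.89. The slide as a block and slide 1 alone both gave 5.64 for Slc26a4, 2.57 for Cftr, -0.19 for Slc5a8 and -0.95 for Kcnq1. Leaving out 1 replicate gave ranges of 4.40 to 5.12 for Slc26a4, -1.65 to -1.49 for Ano1, 1.68 to 2.20 for Cftr, -0.98 to -0.55 for Slc5a8, -1.07 to -0.99 for Kcnq1 and 6.39 to 6.72 for Kcne2. The causes were not tested.

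Over all genes, 8402 were called higher in thymic and 6515 in thyroid cells, against 5032 and 6403 when each probe had to be above background on every array (fewer genes tested), 6098 and 11041 with median centring, 6123 and 10964 with the value table, 7608 and 3675 with no scaling, and 7287 and 7905 with quantile normalization. In the related lists, calls higher in thymic cells numbered 37, and 21 with the filter on all 6 arrays. Where the count of a single list moved by over 1.5 times, it did so by 1 to 4 genes. Of 1036 tests of 62 named genes, 38 crossed the threshold (Abcc5, Ano10, Ano2, Duox2, Kcne1, Kcne4, Slc12a2, Slc5a6 and Stx1a) and 0 changed direction among calls. The sources used here do not say that replicate numbers pair the samples, and deviations of same-numbered arrays correlated at 0.0066, -0.0667 and -0.0544. These correlations cannot exclude a pairing, because different-numbered arrays were not compared and the thyroid arrays were split between slides. The replicate block gave 8053 calls on the thymic and 5997 on the thyroid side, and of the named genes only Kcne4 and Slc5a6 lost their call with it. It can change the error of a difference but not its size, so Slc26a4 at 4.81 was fixed in advance. Signals near background limit Kcne2 in thyroid cells.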

Other observations

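The pumps and channels here set the sodium gradient used by SLC5 carriers, and the scaffold proteins hold CFTR and its partners at the apical membrane. Genes of both kinds were called in both directions, as were all genes tested (39.3% higher in thymic and 30.5% in thyroid cells). Of 15 tested sodium pump and sodium channel genes, 6 were called higher in thymic and 9 in thyroid cells, with a median log2 difference of -0.90. The pump's beta subunit gene Atp1b1 averaged 5.07 ± 0.10 in thymic and 5.97 ± 0.19 in thyroid cells (limma adjusted p = 0.00088). The small pump regulators of the FXYD family went both ways. Fxyd3 was 48.4-fold and Fxyd6 18.2-fold higher in thymic cells, and Fxyd4 was 30.3-fold and Fxyd5 23.0-fold higher in thyroid cells. Fxyd2 differed by 8.33 ± 0.69 on the log2 scale and was well above background on 1 thyroid array, where the 3 thyroid arrays had an SD of 1.51. Scnn1b, a subunit of the epithelial sodium channel, was 41.9-fold higher in thyroid cells (limma adjusted p = 5.10e-07).

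Of 10 tested scaffold and CFTR partner genes, 3 were called higher in thymic and 5 in thyroid cells, with a median of -0.34. The related PDZ scaffolds lay on opposite sides: Slc9a3r1 was 3.22-fold higher in thymic cells and Slc9a3r2 98.8-fold higher in thyroid cells (limma adjusted p = 2.94e-05 and 1.10e-06). Pdzk1 and Slc9a3, a sodium proton exchanger gene, were at least 19.2-fold and 5.77-fold higher in thymic cells. Of 11 tested genes from the thyrotropin receptor to cAMP signalling, which opens CFTR, 0 were called higher in thymic and 8 in thyroid cells by limma at an adjusted p under 0.05, with a median of -0.90. Gnas, which encodes the stimulatory G protein, was 6.11-fold and Prkar1a, a regulatory subunit of protein kinase A, 2.62-fold higher in thyroid cells. The Gnas value is that of its brightest probe. Its 4 tested probes were all called higher in thyroid cells, with log2 differences of -2.61 to -0.86. With the median over probes, 2 genes of this list were called higher in thymic cells. With no scaling between arrays, and with the slide as a block, 1 gene was.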
